A study of Mus musculus with 14 samples.

Results

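The enzymes and the transporter that carry arginine into nitric oxide, ornithine or back to arginine, together with the enzyme that makes itaconate, were followed across sorted marrow progenitors and stromal cultures. They are Slc7a2, Nos2, Gch1, Ass1, Arg1, Arg2 and Acod1, 7 of the 55487 genes in the count tables. The genes were selected on their known roles with earlier results of these data in view, among them the IL-1β values of Nos2 in the stromal cultures. Their IL-1β values are therefore given as a description, with no test. Their difference between progenitor fractions was tested.

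The libraries came from 2 sorted fractions of mouse bone marrow and from a culture. LSK cells (Lin-Sca1+c-kit+) hold the stem cells, LK cells are Lin-c-kit+ and hold the myeloid progenitors, and mesenchymal stromal cells (MSC) were grown out of marrow. The sorted cells carried a heterozygous Jak2V617F allele switched on by Mx1Cre after pI-pC, an inducer active well beyond the marrow, in PBS and IL-1β animals alike. As the study describes its cohort, marrow of such mice was transplanted into lethally irradiated C57BL/6 hosts. The hosts then received PBS (3 libraries per fraction) or IL-1β by intraperitoneal injection (2 libraries per fraction) at 0.5 μg a dose, 3 doses a week for 16 weeks. The MSC came from wild-type C57BL/6 marrow, were cultured for 21 days and were held for 72 h in PBS (2 libraries) or in IL-1β at 5 ng/ml (2 libraries). The labels give no age. The reporting summary puts mice at 6 to 8 weeks of age when used, without saying which groups or time point this covers. For the sorted cells the study's figure legends give n = 3 (PBS) and n = 2 (IL-1β) beside the treated mice, the same as the library numbers. They do not state that each library was a separate animal, and no source says whether MSC libraries came from separate cultures. The p-values therefore measure only the spread between these libraries.

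Arginine enters cells through cationic amino acid transporters, of which Slc7a2 encodes one that inflammatory signals can induce. Inducible nitric oxide synthase (Nos2) turns arginine into nitric oxide and citrulline and needs tetrahydrobiopterin, whose synthesis starts with GTP cyclohydrolase (Gch1). Argininosuccinate synthase (Ass1) starts the return of citrulline to arginine, and the arginases, cytosolic Arg1 and mitochondrial Arg2, split arginine into urea and ornithine. Acod1 decarboxylates cis-aconitate, an intermediate of the citrate cycle, to itaconate, a product known from activated macrophages.

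RefSeq promoter windows were at hand for Ass1, Gch1 and Acod1, which show 3 patterns in the libraries: expressed everywhere, different between progenitor fractions, and near 0 except in treated MSC. Each window holds 250 bases before and 50 after the start site, 5′ to 3′ on the strand of the gene (build GRCm38.p6): Ass1 at chr2:31470020-31470319 on the plus strand, Gch1 at chr14:47189364-47189663 on the minus strand and Acod1 at chr14:103046762-103047061 on the plus strand. Capitals mark matches to the motifs searched.
Ass1: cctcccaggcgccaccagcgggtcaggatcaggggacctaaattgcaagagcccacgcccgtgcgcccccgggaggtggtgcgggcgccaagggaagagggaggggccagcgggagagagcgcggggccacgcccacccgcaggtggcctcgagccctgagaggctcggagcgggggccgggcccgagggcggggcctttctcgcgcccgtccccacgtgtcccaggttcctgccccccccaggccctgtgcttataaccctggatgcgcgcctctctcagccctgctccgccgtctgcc
Gch1: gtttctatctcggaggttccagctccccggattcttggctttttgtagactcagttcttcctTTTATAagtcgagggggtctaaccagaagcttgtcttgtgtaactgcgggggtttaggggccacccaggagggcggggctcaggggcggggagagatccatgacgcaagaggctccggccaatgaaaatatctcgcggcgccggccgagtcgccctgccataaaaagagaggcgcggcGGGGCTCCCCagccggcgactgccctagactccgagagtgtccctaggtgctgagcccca
Acod1: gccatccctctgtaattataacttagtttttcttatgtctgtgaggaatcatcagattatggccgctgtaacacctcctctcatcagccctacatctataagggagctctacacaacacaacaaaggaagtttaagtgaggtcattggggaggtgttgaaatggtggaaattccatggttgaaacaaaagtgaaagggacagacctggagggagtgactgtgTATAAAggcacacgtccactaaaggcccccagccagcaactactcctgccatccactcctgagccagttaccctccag

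The motifs were the 10-letter NF-κB consensus, AP-1 (TGANTCA), C/EBP (TTGCNNAA), GAS (TTCNNNGAA), ISRE (GAAANNGAAA) and TATAAA, on both strands, and no matches overlapped. In the Gch1 window an NF-κB match lay at -10 to -1 from the start site and a TATAAA match on the other strand at -188 to -183. The Acod1 window held TATAAA at -28 to -23, and the Ass1 window held none of these letters. Of 32851 windows of the same length, 4.51% held the NF-κB consensus, 13.6% TATAAA, 7.81% AP-1, 10.8% C/EBP, 8.30% GAS and 3.44% ISRE. These matches describe the letters only.

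Each library held from 4393233 to 30871055 counted read pairs, and in LSK and LK cells each IL-1β library was shallower than each PBS library, so depth and treatment cannot be told apart there. Among the MSC libraries, PBS replicate 3 held 0 counts of Xist, the RNA of the inactive X chromosome, and 1067 of the Y-linked Ddx3y, whereas the other 3 libraries held both (325 to 2103 and 258 to 1992 counts). LSK PBS replicate 2 stood farthest from its group. Its counts differed from PBS replicates 1 and 3 by a chi-square per degree of freedom of 109 and 112, against 36.8 between those replicates. LK PBS replicate 1 also stood off, at 81.8 and 69.5 from LK PBS replicates 2 and 3, against 34.4 between those. Values that rest on MSC PBS replicate 3 or LSK PBS replicate 2 are given below with and without that library. The MSC libraries held RNA of macrophage as well as mesenchymal genes: 13 macrophage genes summed to 18325 to 44446 CPM and 12 mesenchymal genes to 2230 to 5648 CPM. Much of the macrophage sum came from Lyz2, and sums of different genes do not give the share of each cell type. Of the 12 mesenchymal genes 11 had enough counts to be tested, and Col1a1 was abundant. The stromal gene Lepr had 0 counts in both PBS libraries. MSC is therefore used as the name the labels give. In the sorted libraries macrophage genes summed to 54 to 165 CPM. In bulk RNA, fewer cells of a type and less RNA per cell cannot be told apart.

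Levels are CPM, counts scaled to the same total per library, on library sizes adjusted by the TMM method over all 14 libraries. Nos2 (chromosome 11, bases 78920787 to 78960254, plus strand, GRCm38) had 0 counts in all 5 LK libraries and in the 3 LSK PBS libraries. One LSK IL-1β library held 7 counts (0.77 CPM) and the other 0. In these groups, 0 counts allow a level of up to 0.0662 CPM in LK cells with PBS, 0.214 with IL-1β and 0.0720 in LSK cells with PBS, for counting error only. In MSC, the PBS libraries held 1 and 2 Nos2 counts, at 0.20 and 0.18 CPM, and the IL-1β libraries held 2472 and 861, at 102 and 90.9 CPM. Nos2 was thus abundant in both treated cultures and at or near 0 everywhere else.

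The arginases were low in the sorted cells. Arg1 (chromosome 10, bases 24915221 to 24927484, minus strand) had 0 to 5 counts and Arg2 (chromosome 12, bases 79130777 to 79156301, plus strand) 0 to 3 counts in each LSK and LK library. In MSC, Arg2 was counted 1 and 3 times with PBS and 395 and 126 times with IL-1β, 0.20 and 0.27 against 16.3 and 13.3 CPM. Arg1 was counted 0 and 2 times with PBS and 19 and 3 times with IL-1β, 0 and 0.18 against 0.79 and 0.32 CPM. Treated MSC thus held the mitochondrial arginase well above the cytosolic one. Exons of Arg2 overlap those of Gm48780 and Vti1b on the opposite strand, which the strand-specific counting keeps apart, and no member overlaps another gene on its own strand.

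Acod1 (chromosome 14, bases 103046977 to 103056573, plus strand), whose promoter is printed above, had 0 to 8 counts in each LSK and LK library. It reached 1.04 CPM at most, in an LK IL-1β library. In MSC the PBS libraries held 0 and 2 counts and the IL-1β libraries 532 and 243, at 22 and 25.7 CPM. The transporter gene Slc7a2 (chromosome 8, bases 40862396 to 40922308, plus strand) had 0 to 7 counts in each LSK and LK library. It was already present in untreated MSC, at 15 and 13.1 CPM with PBS against 48.3 and 44.2 CPM with IL-1β.

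Ass1 and Gch1 were measured in every library. Ass1 (chromosome 2, bases 31470207 to 31520672, plus strand) stood at 100.1, 74.1 and 127 CPM in LSK cells with PBS and 92.4 and 138 CPM with IL-1β. In LK cells it stood at 115, 111 and 190.1 CPM with PBS and 92.5 and 114 CPM with IL-1β, and in MSC at 70.4 and 106 CPM with PBS and 69.7 and 70.0 CPM with IL-1β. From highest to lowest group mean the order was LK PBS, LSK IL-1β, LK IL-1β, LSK PBS, MSC PBS and MSC IL-1β, and neighbours in this order overlapped, except that both treated MSC libraries lay just below the lower untreated one.

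Gch1 (chromosome 14, bases 47153895 to 47189413, minus strand) was ordered by cell type. It stood at 23.1 and 36.7 CPM in MSC with PBS and 42.5 and 40.5 CPM with IL-1β. LSK cells held 20.8, 9.62 and 16.7 CPM with PBS and 12.6 and 18.2 CPM with IL-1β. LK cells held 6.85, 6.23 and 5.66 CPM with PBS and 4.15 and 3.72 CPM with IL-1β. No LK library reached the lowest LSK library, and no LSK library reached the lowest MSC library. LSK PBS and LSK IL-1β overlapped (15.7 ± 5.64, SD, n = 3, and 15.4 ± 3.94 CPM, SD, n = 2).

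**Figure D1:**
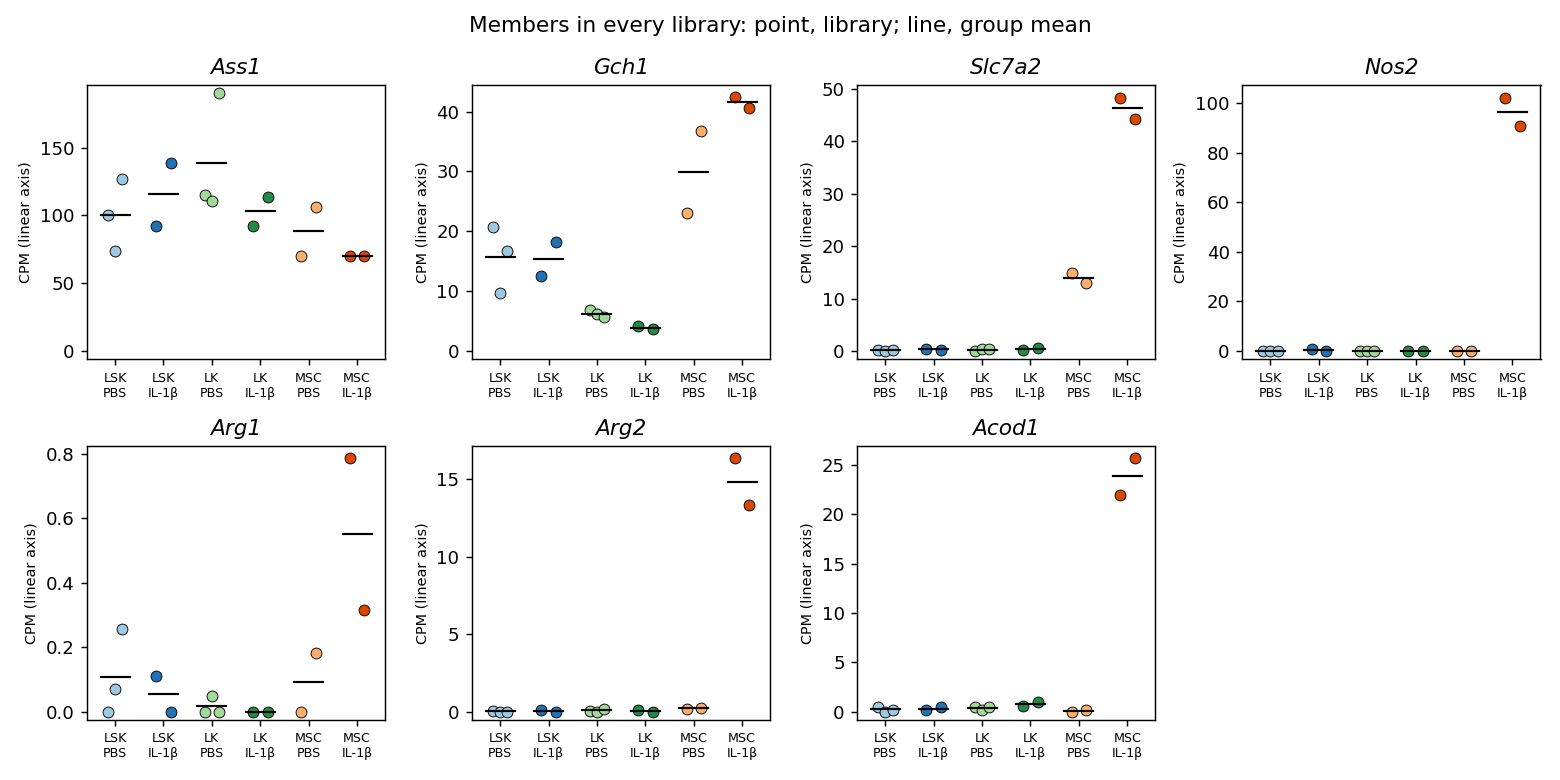
CPM (linear axes) of the 7 members in each of the 14 libraries, by cell type and treatment. Each point is a library and each line a group mean. Nos2, Arg2, Acod1 and Slc7a2 stand out in the 2 IL-1β-treated MSC libraries, whereas Ass1 is spread over all groups and Gch1 is lowest in LK cells.

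The question put to the MSC was what IL-1β does to the marrow stroma. Every IL-1β library exceeded every PBS library for 6 of the 7 members, and fell short of every PBS library for Ass1. Of 13239 genes with enough counts to be fitted, 33.3% lay above and 26.2% below in the same way, and nothing is read from the members' count, since this contrast was known when they were selected. Arg1 had too few counts to be fitted. Where PBS held 1 to 4 counts in all, the ratio of summed counts per adjusted library size is given with its exact 95% counting interval. It was 529 for Nos2 (181 to 2566), 184 for Acod1 (50.9 to 1526), 62.0 for Arg2 (24.1 to 228) and 5.24 for Arg1 (1.29 to 45.9). The Arg1 ratio rests on 19 of its 22 IL-1β counts from replicate 1, without which it was 2.54 (0.291 to 30.4).

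Without PBS replicate 3, the ratio was 502 for Nos2 (90.1 to 19839) and 78.5 for Arg2 (14 to 3106). PBS replicate 2 alone held 0 counts of Acod1 and Arg1. Set against 3 counts in that library, the ratio was 38.9 for Acod1 and 1.1 for Arg1. These ratios leave out the counting error of the IL-1β counts, so they are not lower bounds. The Arg1 value shows no clear difference. On the log2 scale, edgeR's fitted difference was 8.91 for Nos2 (SE 0.22), 7.45 for Acod1 (SE 0.46) and 5.81 for Arg2 (SE 0.35), the values ranked 3, 8 and 27 from the top of the 13239 genes. The SE here is derived from the test statistic and understates the counting error of so few PBS counts. The counting intervals are the safer measure of precision for these genes.

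Slc7a2 differed by 1.70 (SE 0.14), a 3.25-fold difference at rank 363, and by 1.58 without PBS replicate 3. The fitted difference of Gch1 was 0.42 (SE 0.21), and that of Ass1 -0.39 (SE 0.19). Both were of the size of the gap between the PBS libraries. Without PBS replicate 3, Gch1 stood at 0.80 and Ass1 at -0.06, and without PBS replicate 2 they stood at 0.17 and -0.62. The gap between the 2 PBS libraries thus moved Gch1 and Ass1 by about as much as the treatment did. The fitted value of Acod1 was 11.25 without PBS replicate 3 and 6.93 without PBS replicate 2. The former is set by the prior count, since PBS replicate 2 had no Acod1 counts, and the count ratio above is the safer value.

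**Figure D2:**
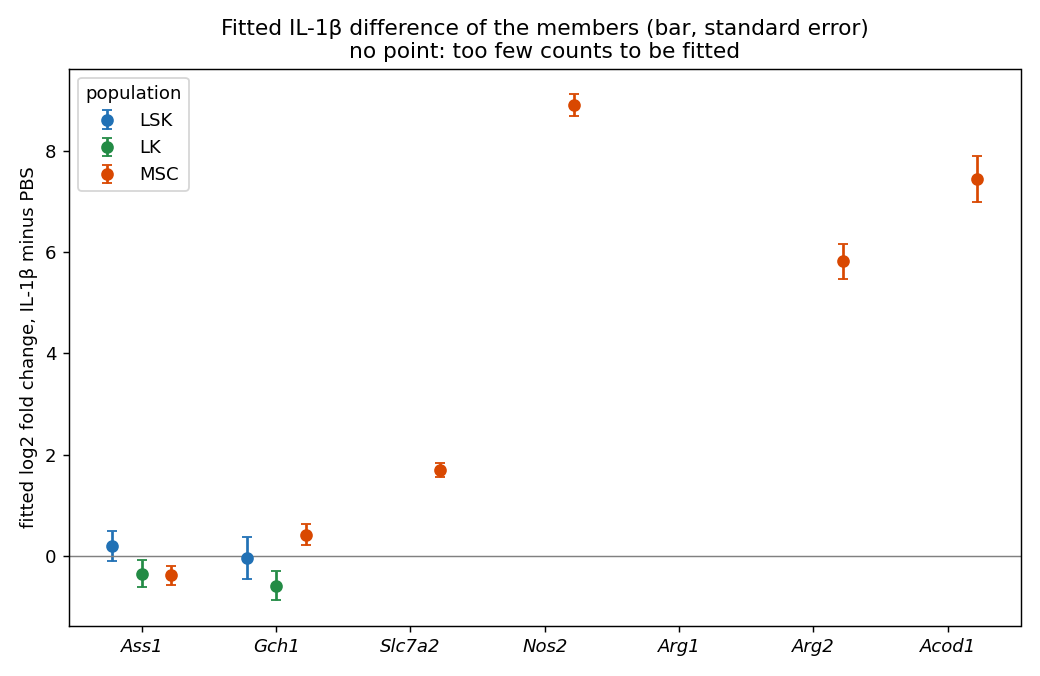
Fitted log2 fold change of each member, IL-1β minus PBS, in LSK, LK and MSC libraries. Bars are the SE derived from the test statistic, which is too narrow for Nos2, Acod1 and Arg2 because PBS held few counts. In MSC, Nos2 stands at 8.91, Acod1 at 7.45 and Arg2 at 5.81, whereas Ass1 and Gch1 lie between -0.59 and 0.42 in all 3 populations, and a gene with too few counts in a population has no point.

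To compare levels between genes, counts were divided by gene length and scaled to the same sum in each library (TPM). In MSC with IL-1β, Ass1 stood highest (68.6 and 70.4 TPM), followed by Nos2 (54.7 and 49.7), Arg2 (27.1 and 22.6), Acod1 (19.9 and 23.7), Gch1 (16.2 and 15.7), Slc7a2 (12.6 and 11.8) and Arg1 (0.84 and 0.35 TPM). Arg2 and Acod1 overlapped, and the other neighbours did not. In MSC with PBS the order was Ass1 (75.6 and 104), Gch1 (9.57 and 13.9), Slc7a2 (4.26 and 3.38) and then Arg2, Nos2, Arg1 and Acod1, none above 0.454 TPM. Transcripts of Nos2 exceeded those of Arg2, which competes for the same arginine, 2.01- and 2.20-fold in the treated libraries.

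The balance of the transporters also differed. Slc7a1, which encodes the cationic amino acid transporter found in most cells and was singled out here after its values were seen, stood at 6.39 and 7.19 TPM with PBS and 4.68 and 4.25 with IL-1β. Within each library the Slc7a2 level was 0.666 and 0.470 of the Slc7a1 level with PBS and 2.69 and 2.77 times that level with IL-1β. Slc7a1 itself was not called (log2 fold change -0.61, SE 0.15, adjusted p = 0.0546).

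**Figure D3:**
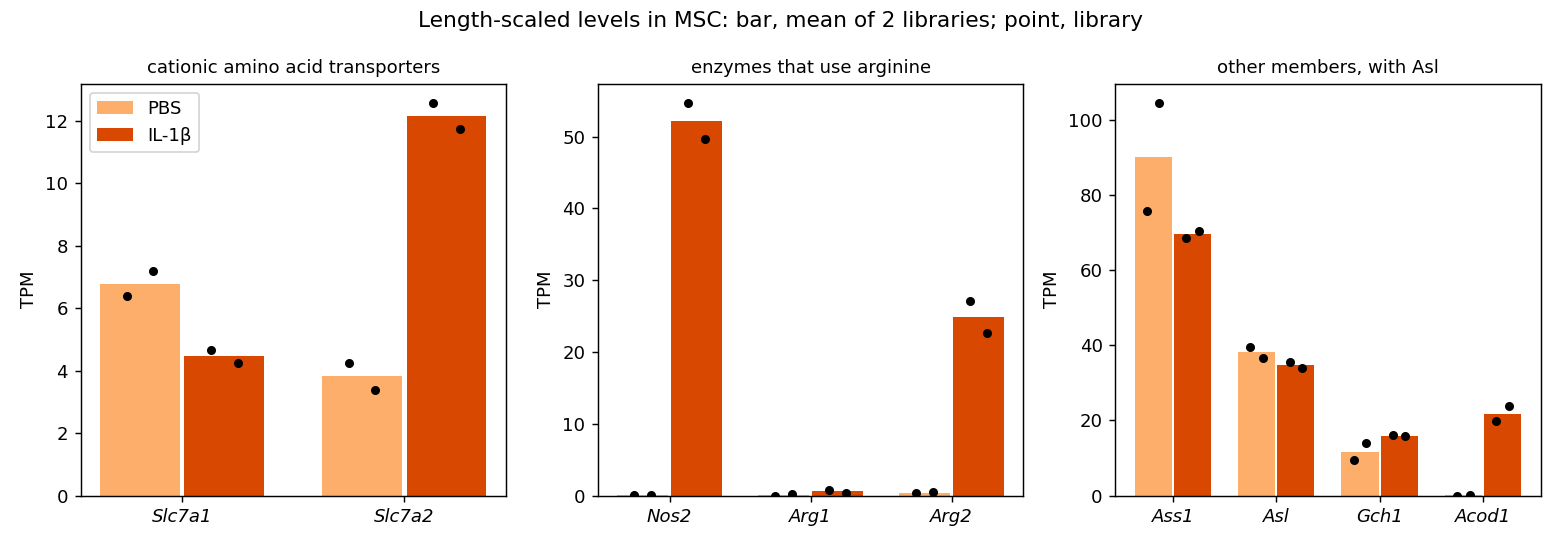
TPM in MSC treated with PBS or IL-1β. Bars are means of 2 libraries and points the libraries, on axes that start at 0. Slc7a2 lies under Slc7a1 with PBS and above it with IL-1β, and Nos2 and Arg2 are near 0 with PBS.

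A list of 58 further genes of these pathways was examined in the same fits. It was drawn up with earlier results of these data known, so its calls and shares are not an independent test. A gene was called at an adjusted p under 0.05 (edgeR's quasi-likelihood test, Benjamini-Hochberg over all genes tested) with a log2 fold change above 0.5 in size. In MSC 45 of the 58 could be tested, with 4 calls upward and 6 downward in treated cultures. These are 8.89% and 13.3% of those tested, beside 7.14% and 4.31% of all 13239 genes. The list's median log2 fold change was -0.05 and that of all genes 0.00.

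The 4 called higher were transcription factors known to act on Nos2, Arg1 or Acod1, of which 7 of 7 were tested, and 3 of the 4 are described. Hif1a, the oxygen-regulated factor, rose by 1.67 (SE 0.20, adjusted p = 0.00913), from 153 and 105 to 419 and 416 CPM. Cebpb, a factor of inflammatory and myeloid gene control, rose by 1.03 (SE 0.10, adjusted p = 0.00503), from 166 and 180 to 364 and 361 CPM. Irf1, an interferon-regulated factor, rose by 0.58 (SE 0.10, adjusted p = 0.0243). The NF-κB subunits stood at 0.50 for Nfkb1 (adjusted p = 0.0462, under the size needed for a call) and 0.11 for Rela (adjusted p = 0.557).

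The 6 called lower lay in 4 parts of the list. Of 5 genes tested for the synthesis and recycling of tetrahydrobiopterin, the cofactor of nitric oxide synthases, all 5 were lower in both IL-1β libraries and 2 were called. Among all genes fitted 26.2% lay below in the same way and 4.31% were called lower, and the short list is given as a description. Qdpr, which regenerates the cofactor, stood at 154 and 202 CPM with PBS and 98.9 and 107 with IL-1β (log2 fold change -0.83, SE 0.15, adjusted p = 0.0264). Pcbd2, a dehydratase of the same cycle, stood at 42.6 and 38.5 against 22.6 and 23.4 CPM (-0.85, SE 0.14, adjusted p = 0.0185). Of 3 genes tested for methylarginines, natural inhibitors of nitric oxide synthases, Prmt1, which forms them, fell by 0.52 (adjusted p = 0.0333; with no filter on low counts it stood at -0.48, under the size needed for a call) and Ddah2, assigned to their removal, fell by 0.67 on the log2 scale (adjusted p = 0.0274). Nostrin, a protein that binds endothelial nitric oxide synthase, fell by 0.80 (adjusted p = 0.0248), and Odc1, which turns ornithine into polyamines, fell by 0.68 (adjusted p = 0.0251).

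Nothing was called among 11 genes of citrate and itaconate metabolism, whose median was 0.02, or among 6 transport genes. The other nitric oxide synthases were too low to be tested: Nos1 had 0 and 0 counts with PBS and 10 and 3 with IL-1β, and Nos3 had 0 and 2 against 9 and 1. Every one of these 10 calls was lost when either IL-1β library was left out, which leaves 1 treated library assumed to vary like the PBS libraries. With PBS replicate 2 left out 17 genes of the list were called, and with PBS replicate 3 left out 14. With upper-quartile scaling 49.6% of all calls were higher, against 62.4% with TMM.

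Genes of other cell types moved with these values. On a list of 13 macrophage genes, all tested, IL-1β gave 8 calls upward and 1 downward in MSC, beside 7.14% and 4.31% of all 13239 genes. Their levels summed to between 18325 and 22266 CPM with PBS and to between 43374 and 44446 CPM with IL-1β. Adgre1, which encodes F4/80, stood at 906 and 793 CPM with PBS and 2203 and 2162 with IL-1β, and Lyz2 at 8433 and 5821 against 25043 and 24888 CPM. Of 12 mesenchymal genes 11 were tested, and 1 was called higher and none lower, beside the same shares of all genes. Their sums were 2230 to 4420 CPM with PBS and 5298 to 5648 CPM with IL-1β. Col1a1 was abundant (492 to 1569 CPM), whereas Lepr reached 0.63 CPM at most. The part of these genes' cells in the MSC values of the members was not tested.

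**Figure D4:**
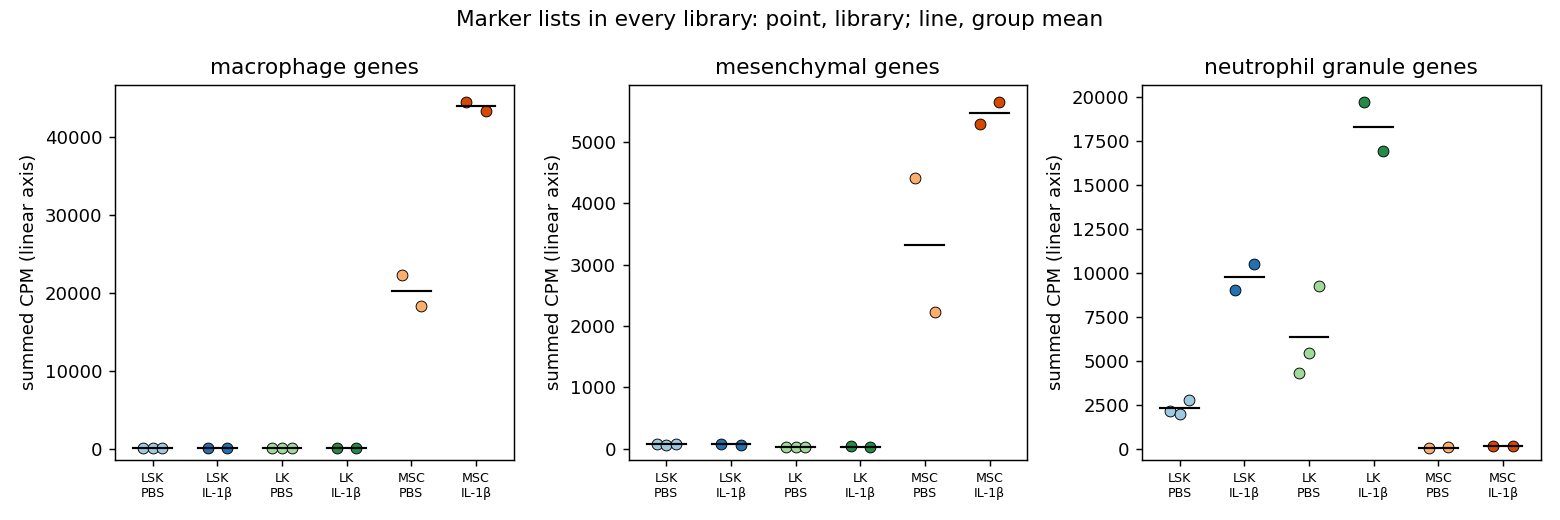
Summed CPM (linear axes) of 13 macrophage, 12 mesenchymal and 12 neutrophil granule genes in each library. Points are libraries and lines group means. The macrophage sum lies at 18325 to 22266 CPM in MSC with PBS and 43374 to 44446 with IL-1β, and the neutrophil sum is higher with IL-1β in LSK and LK cells.

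In the progenitors the question was how months of IL-1β alter gene expression in Jak2V617F cells. Only Ass1 and Gch1 had enough counts to be fitted there. In LSK cells the fitted log2 difference between IL-1β and PBS was 0.19 for Ass1 (SE 0.30) and -0.04 for Gch1 (SE 0.42), under 1 standard error for both. In LK cells it was -0.35 for Ass1 (SE 0.27), with overlapping groups. Gch1 stood at -0.59 (SE 0.29) in LK cells, and both IL-1β libraries lay below the 3 PBS libraries. The share of all genes apart in this way in LK cells was not determined, so nothing is read from it. Without LSK PBS replicate 2 the LSK values were 0.03 for Ass1 and -0.28 for Gch1.

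Of the pathway list, 50 genes were tested in LSK cells, where 1 was called higher and none lower, beside 0.32% and 0.312% of all 13132 genes. It was Gatm, which starts creatine synthesis from arginine and glycine, at 51.1, 33.3 and 55.5 CPM with PBS and 139 and 140 CPM with IL-1β (log2 fold change 1.57, SE 0.28, adjusted p = 0.0407). Without either IL-1β library it was not called (adjusted p = 0.141 and 0.28). With LSK PBS replicate 2 left out 5 genes of the list were called.

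In LK cells 48 genes of the list were tested, and 5 were called higher and 3 lower (10.4% and 6.25%), beside 6.77% and 2.57% of all 12835 genes. Hif1a rose by 1.64 (SE 0.14, adjusted p = 0.000968), from 26.1, 26.6 and 33.5 to 85.7 and 84.1 CPM, and Cebpb by 1.51 (SE 0.14, adjusted p = 0.00128), from 24.7, 19.8 and 23.7 to 59.3 and 63.0 CPM. These 2 factors rose in MSC as well, and their LK calls held with any library left out. Gatm rose by 0.83 (SE 0.10, adjusted p = 0.00356), from 139, 136 and 153 to 230.2 and 253 CPM. The transport genes Slc7a3, a cationic amino acid transporter, and Slc7a6, an arginine and glutamine exchanger, rose by 2.92 (SE 0.75, adjusted p = 0.0445) and 0.87 (SE 0.18, adjusted p = 0.0213), the former from 0.62, 0.40 and 0.07 to 2.20 and 3.12 CPM.

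The 3 that fell in LK cells were Pde5a, a phosphodiesterase that removes cyclic GMP, by 1.63 (SE 0.36, adjusted p = 0.0272), Nags, which makes the activator of the urea cycle, by 1.61 (SE 0.38, adjusted p = 0.0336), and Rela by 0.60 (SE 0.10, adjusted p = 0.00875). Leaving out either LK IL-1β library ended the calls of Slc7a3, Slc7a6, Nags, Pde5a and Rela (adjusted p from 0.0685 to 0.27), and leaving out replicate 1 ended that of Gatm (0.0513). Slc7a3, Nags and Pde5a were also not called without PBS replicate 1 or 2 (0.0577 to 0.115), nor Slc7a6 without PBS replicate 2 (0.057), whereas 11 genes of the list were called without PBS replicate 3. Beside these values, 7 of 11 tested neutrophil granule genes were called higher and none lower in LK cells with IL-1β, with sums of 16909 to 19676 CPM against 4331 to 9230 with PBS. Of 8 erythroid genes 5 were called lower, and of 6 monocyte genes 3. Among all genes tested in LK cells 6.77% were called higher and 2.57% lower. In LSK cells, where Gatm was called, the granule sums were 9039 to 10510 against 1991 to 2802 CPM. Stem and progenitor genes there summed to 778 to 910 CPM with IL-1β against 1355 to 1766 with PBS. Of these 8 genes 2 were called lower, beside 0.312% of all genes tested in LSK cells. Their part in these values was not tested.

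LK and LSK cells were compared in 1 fit of all 10 sorted libraries, which were treated as independent. This contrast was taken as not used to select the members. The values behind the selection are not stated and may span the populations, so the p-values of Gch1 and Ass1 here rest on that assumption. Gch1 was lower in LK than in LSK cells with PBS, at 6.24 ± 0.598 (SD, n = 3) against 15.7 ± 5.64 CPM (SD, n = 3), a log2 difference of -1.46 (SE 0.32, adjusted p = 0.00506). The 3 LK libraries lay below the 3 LSK libraries. Without LSK PBS replicate 2, which was the lowest of its group, the difference was -1.73 (adjusted p = 0.000572), and leaving out any other library kept the call. With IL-1β the difference was -1.97 (SE 0.42, adjusted p = 0.0236), at 3.93 ± 0.306 (SD, n = 2) against 15.4 ± 3.94 CPM (SD, n = 2). It was not called without LSK IL-1β replicate 2 (adjusted p = 0.104) or without either LK IL-1β library (0.162 and 0.247).

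Ass1 did not pass the test between the fractions with PBS (log2 difference 0.34, SE 0.27, adjusted p = 0.359) or with IL-1β (-0.17, SE 0.33, adjusted p = 0.801). All genes tested gave 12.4% called higher and 19.4% lower in LK cells with PBS, and 2.27% and 2.13% with IL-1β. Of the 2 members tested, 0 were called higher and 1 lower under either treatment. These comparisons share libraries with the IL-1β comparisons.

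Of the pathway list, 51 genes were tested between the fractions with PBS, and 11 were higher (21.6%) and 14 lower (27.5%) in LK cells, beside the shares of all genes just given. The nitric oxide receptor and its effectors were lower as a group, with 4 of 4 called, which stands as a description of a short list. Prkg1, the kinase that cyclic GMP activates, stood at 23.1, 26.7 and 20.2 CPM in LSK and 2.41, 0.55 and 2.62 CPM in LK cells (log2 difference -3.79, SE 0.60, adjusted p = 0.000658). Gucy1a1 and Gucy1b1, the subunits of the soluble guanylate cyclase that senses nitric oxide, differed by -3.33 (SE 0.52, adjusted p = 0.000645) and -3.08 (SE 0.81, adjusted p = 0.0129). Pde5a differed by -1.27 (SE 0.32, adjusted p = 0.0103). Gucy1b1 was not called without LK PBS replicate 1 or 2 (0.0618 and 0.0613), nor Pde5a without replicate 1 of either fraction with PBS (0.0548 and 0.0603).

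Gchfr, whose product restrains the Gch1 enzyme when tetrahydrobiopterin is plentiful, was lower in LK cells as well (-2.75, SE 0.81, adjusted p = 0.0212). This rests on LSK PBS replicate 2, at 6.29 CPM against 0.93 and 2.11 in the other LSK libraries, and without it Gchfr was not called (adjusted p = 0.0704), nor without any 1 of the LK PBS libraries (0.0532 to 0.09). Nos1ap, an adaptor of neuronal nitric oxide synthase, differed by -2.84 (SE 0.51, adjusted p = 0.00156), and Irf1 by -2.07 (SE 0.21, adjusted p = 5.37e-05). Higher in LK cells were Nags (4.71, SE 0.86, adjusted p = 0.00165) and 10 others, of which 4 belong to the uses of arginine and ornithine (Gatm, Aldh18a1, Oat and Odc1) and 4 to citrate and itaconate metabolism (Cs, Aco1 and Clybl among them). The genes named between the fractions were chosen after their values were seen. Odc1 was not called without LK PBS replicate 1 (0.0615), nor Aco1 without LSK PBS replicate 3 or any LK PBS library (0.0519 to 0.0777). Leaving out LK PBS replicate 1 left 14 calls on the list and replicate 2 left 16.

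With IL-1β 2 genes of the list were called higher and 2 lower in LK cells, each 3.92% of the 51 tested. Aldh18a1 was among those higher (0.79, SE 0.18, adjusted p = 0.031), and those lower were Ddah2 (-2.57, SE 0.42, adjusted p = 0.0058) and Pde5a (-1.98, SE 0.44, adjusted p = 0.0265). With the replicate number as a block, 5 genes of the list were called, and Gucy1a1 and Prkg1 were then called lower (adjusted p = 0.0402 and 0.0468, against 0.0655 and 0.127 without the block). Leaving out LK IL-1β replicate 2 left 0 calls on the list, replicate 1 left 1, Ddah2, and either LK PBS replicate 1 or 2 left 2, whereas 13 were called without LSK PBS replicate 2. Without LSK IL-1β replicate 1, Aldh18a1 and Pde5a were not called (adjusted p = 0.0845 and 0.149). Beside both comparisons, stem and progenitor genes were lower in LK cells (8 of 8 called with PBS, 5 of 8 with IL-1β) and erythroid genes higher (8 of 8 and 6 of 8). Among all genes tested 19.4% were called lower and 12.4% higher with PBS, and 2.13% and 2.27% with IL-1β. The part of cell composition in these differences was not tested.

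**Figure D5:**
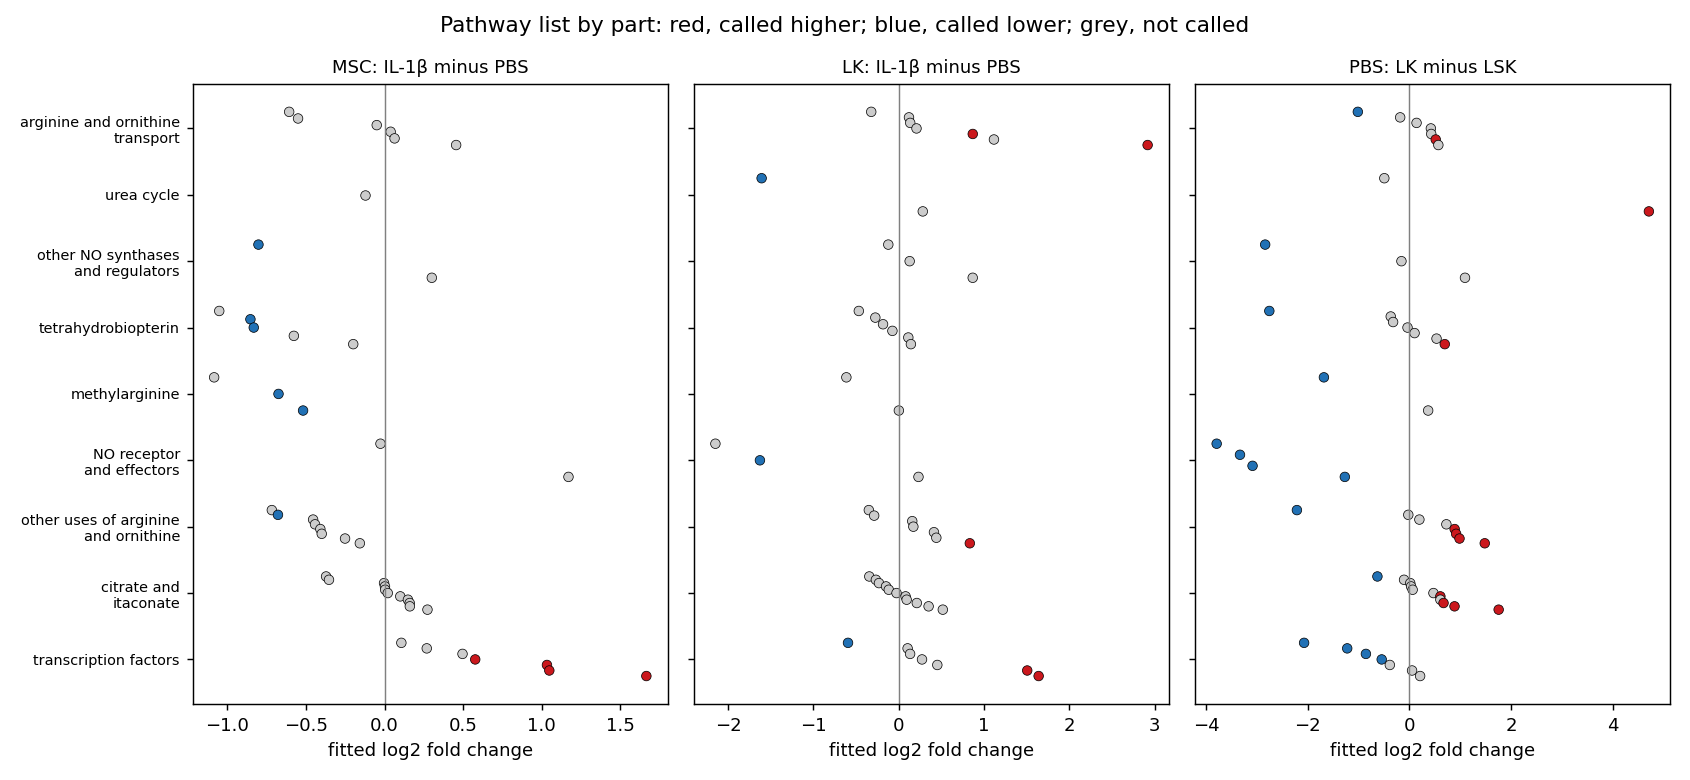
Fitted log2 fold changes of the tested pathway genes by part of the list, for IL-1β minus PBS in MSC and in LK cells and for LK minus LSK with PBS. Each point is a gene. Red points were called higher, blue lower and grey not called. The 4 called higher in MSC are transcription factors, and the nitric oxide receptor genes lie between -3.79 and -1.27 in the comparison of LK with LSK cells.

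The genes most like each member were sought by Pearson's r of log2 CPM (prior count 2) over the 14 libraries, among 13171 genes with a mean of at least 1 CPM. The libraries fall into MSC and sorted cells, so r can carry that split, as for Slc7a2. Nos2, Arg2 and Acod1 were as low in untreated MSC (at most 0.27 CPM) as in sorted cells. Their r therefore mostly sets IL-1β-treated MSC against all other libraries, a contrast known when the members were selected. Arg1 had at most 5 counts in every library except MSC IL-1β replicate 1, with 19, so its r rests on very few counts. Each r is a description. Nos2 was most like Steap4 (r = 0.977), Cd209f (0.974) and Arg2 (0.974), and Arg2 most like Cd209f (0.982), Fpr1 (0.979) and Steap4 (0.979). Acod1 was most like Fpr2 (0.945), Slfn1 (0.934) and Fpr1 (0.921). Slc7a2, which untreated MSC already expressed, was most like Mospd2, Sowahc and Lmbrd1 (0.986 to 0.987). Gch1 was most like Anks6 (0.973), Slc24a5 (0.964) and Trim47 (0.962), Ass1 was close to the ribosomal protein gene Rpl21 (0.892) and to Lancl1 (0.889), and Arg1 was most like Gm13091, Rsad2 and Mx2 (0.831 to 0.837).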

How the data were processed

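RNA was measured in 14 libraries from 6 groups, taken from the sample labels. The authors trimmed the reads with fastp 0.20.0, aligned them with HISAT2 2.0.1 to GRCm38 and deposited counts of read pairs per gene from featureCounts 2.0.2 (reverse-stranded, Ensembl release 100), without normalization. The file headers name 1 further IL-1β MSC library that is not analysed here. The methods name GenomicAlignments for the counting and a NextSeq instrument, the reporting summary a NovaSeq. Deposited gene lengths were used for TPM. RNA was depleted of ribosomal RNA.

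The deposited counts entered edgeR 4.0.16's quasi-likelihood test (R 4.3.3, two-sided, filterByExpr, TMM factors, robust dispersions), fitted within each population for IL-1β against PBS and in 1 fit of 4 groups for LK against LSK. The SE given is the size of the log2 fold change divided by the square root of F. It is an approximation that is too narrow where a group is near 0 counts. Members, pathway and marker lists, and tests were chosen with earlier results of these data known. Named are all 7 members, up to 8 called pathway genes of largest size per treatment comparison, and the 3 genes most like each member. Pathway genes named between LK and LSK, Odc1 in LSK cells, and Irf1, Prmt1, Slc7a1, Nfkb1, Rela, Nos1 and Nos3 in MSC, fall outside this rule. They were picked once their values had been seen. Intervals are exact binomial (95%, scipy 1.17.1) and, like the limit of 3 counts for a count of 0, cover counting error only, since PCR copies are not independent. Libraries of 4393233 to 30871055 read pairs set this precision.

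Deviations from the group means correlated between the LSK and LK library of one number (r = 0.211, 0.128 and 0.472 for PBS, and 0.100 for IL-1β, where 2 libraries a group give both pairs the same value). All passed 0.1, the last only just, but LSK PBS replicate 2 was closer to LK PBS replicate 1 (0.162) than to 2 (0.128). Pairing is thus not settled. The number entered as a block only in an alternative fit, and the main LK against LSK p-values treat the libraries as independent. No source states that they come from 1 mouse. Alternatives were DESeq2 1.42.0, its size factors, upper-quartile factors, no filter, a minimum of 10 reads in 2 or more libraries, the replicate block and each library left out. The fits were tested on simulated data. Some genes that met these rules are not reported here. Symbols were matched for 55141 of 55487 identifiers. Figures were drawn with matplotlib 3.10.9.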

Additional observations from a re-analysis of the deposited data

Results flagged for a closer look

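Among the members and the pathway genes considered here that were called in any comparison (37 genes), 10 had IL-1β and PBS libraries fully apart in opposite directions in different populations. None of these differences between populations was tested, and no group was large enough to be examined for a single outlying library. With 2 or 3 libraries per group, separation in a given direction is common. In MSC alone it held for 33.3% of genes upward and 26.2% downward. The share of all genes apart in opposite directions in different populations was not determined. The 37 genes were also picked as members or for a call. Whether 10 of 37 is more than among other genes is therefore not known. All values are log2 fold changes, IL-1β minus PBS.

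Gch1 was the one member among them, at 0.42 in MSC and -0.59 in LK cells. Irf1 stood at 0.58 in MSC and -0.83 in LSK cells. Pde5a stood at 1.17 in MSC, -0.88 in LSK and -1.63 in LK cells. The opposite order was seen for the tetrahydrobiopterin genes Qdpr (-0.83 in MSC, 0.77 in LSK cells) and Pcbd2 (-0.85 in MSC, 1.2 in LSK cells). Odc1 stood at -0.68 in MSC and 1.33 in LSK cells, and Nostrin at -0.80 in MSC, 0.94 in LSK and 0.87 in LK cells. Idh2 stood at -0.37 in MSC, 0.42 in LSK and 0.52 in LK cells, Aco1 at 0.27 in MSC and -0.15 in LK cells, and Slc7a6 at 0.87 in LK and -0.15 in LSK cells.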

How the results depend on the processing

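Of the members' fitted values, Acod1 (11.25 against 7.45) and Gch1 (0.80 against 0.42) in MSC moved beyond the replicate spread, both without PBS replicate 3. Counts of calls moved more often. In LSK cells (83 calls, 1 on the pathway list) DESeq2 gave 905 and 6, no filter 869 and 5, and the replicate block 702 and 4. In LK cells (1199) no filter gave 1844 and the block 2331. In MSC (1515) no filter gave 2354. For LK against LSK with IL-1β (609 and 4), DESeq2 gave 1336 and 12 and no filter 1410 and 11. The cause was not tested, except that no filter adds low genes to those tested.

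Leaving out 1 library at a time gave 3 to 480 calls in LSK cells (0 to 5 on the list), 66 to 2409 in LK cells (2 to 11), 38 to 3819 in MSC (0 to 17), 2741 to 4607 for LK against LSK with PBS (14 to 27) and 89 to 1867 with IL-1β (0 to 13). The highest MSC count came without PBS replicate 2 and the lowest without IL-1β replicate 1. With upper-quartile factors 38.5% of the calls between LK and LSK with IL-1β were higher, against 51.6%. No scaling moved the median of all genes by more than 0.1.

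PBS and IL-1β animals share only a number (r of their deviations -0.102 to 0.126), so the block there is a check. Between LK and LSK cells of the genes named above the block changed the calls of Gucy1a1 and Prkg1 with IL-1β and no other, and gave 26 and 5 calls on the list. No block was fitted in MSC, where the groups share only replicate number 2. With 1 library left out, the fitted values in LSK cells with IL-1β ran from -0.11 to 0.46 for Ass1 and from -0.31 to 0.22 for Gch1, so they have no settled sign. By CPM with no length Nos2 came before Ass1 in treated MSC, and Slc7a2, Gch1, Acod1 and Arg2 followed.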

Other observations

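Ass1 and Asl catalyse consecutive steps from citrulline to arginine. Within a library, the Ass1 level per length was 3.83 to 14.5 times the Asl level in the 10 sorted libraries and 1.91 to 2.85 times in the 4 MSC libraries. The ranges do not overlap, and since the ratio was looked at after its values were seen it stands as a description. Asl itself was at 20.6 to 38.7 CPM in the sorted libraries and 67.7 to 74.7 CPM in MSC.

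The 2 cationic amino acid transporter genes also split by cell type. Slc7a1 was at 88.2 to 173 CPM in the sorted libraries, where Slc7a2 had 0 to 7 counts, and at 20.2 to 35.1 CPM in MSC. Ddah1, which degrades methylarginines, had 0 to 3 counts in each sorted library and 7.89 to 25.4 CPM in MSC. Gucy1a1 had 0 to 2 counts in each MSC library.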
